A study of Mus musculus with 6 samples.

Results

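Livers of male DIAMOND mice, a cross of 129A1/SvIm and C57BL/6J that develops fatty liver disease and then liver tumors on a Western Diet (WD), were compared at 2 lengths of feeding. The comparison took the 2 Post-T mice, fed the WD for 48 weeks, against the 2 Pre-T mice, fed it for 40 weeks, which makes 4 of the 6 libraries of the study. All 4 mice started at 2 months of age on high-fat food with sugar water, and the 2 Ctrl mice, on chow for 40 weeks, are given beside them as background. The Post-T mice therefore differ from the Pre-T mice in 8 more weeks of diet, in age, in cage and in the presence of tumors, which cannot be told apart. The titles of the Post-T samples call the tissue tumor and their tissue field calls it liver, and whether tumor or surrounding liver was taken was not known here.

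Nuclei of snap-frozen liver were sequenced in droplets, with 1 library per mouse, and unique molecular identifiers (UMIs) were counted per gene and nucleus. Barcodes with more than 200 and under 5000 genes and under 5% mitochondrial UMIs were kept, which left 5407 and 7846 nuclei in the Pre-T mice and 5433 and 5323 in the Post-T mice (replicates 1 and 2 in turn, as in every pair of values), or 24009 of the 39012 kept nuclei of the series. UMIs were summed over the nuclei of a mouse and are given as CPM, the counts of a gene scaled to the same total for every mouse. A gene was said not to overlap where both mice of one group lay beyond both mice of the other.

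In healthy liver, hepatocytes along the portal-to-central axis of the lobule do different work. Those around the portal vein carry out the urea cycle and break down amino acids such as histidine and serine, while those around the central vein make glutamine from the remaining ammonia and hold much of the drug-metabolizing machinery. The central program is set by Wnt signals that stabilize beta-catenin, which joins TCF and LEF factors on DNA, and activating mutations of beta-catenin are a known feature of a share of liver tumors. Hepcidin, the hormone that limits iron release into blood, is made by hepatocytes.

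The 4 WD libraries differed in more than the label. Kept UMIs ranged from 19415498 to 24399295 per library and the median per nucleus from 1623 to 2805. Removed barcodes held 39.5 and 37.6% of the UMIs in Pre-T and 30.8 and 13.5% in Post-T, and barcodes with 5000 genes or more made up 9.53, 5.09, 4.84 and 1.44%. Gm42418, which overlaps ribosomal RNA, stood at 3406, 18268, 45341 and 84514 CPM, and the nuclear RNA Malat1 at 59623, 38306, 29595 and 14297 CPM. The 4 adult hemoglobin genes summed to 500, 2416, 6756 and 698 CPM. Among genes of at least 20 CPM, 105 of 7686 differed 4-fold or more between the Pre-T mice and 330 between the Post-T mice. Of 23950 different barcodes, 59 occurred in more than 1 of these libraries. The part of these differences in the results was not tested.

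Over all kept nuclei, hepcidin was lowest in the Post-T mice, and Kupffer cell genes, collagens and chemokines lay mostly below their Pre-T levels. Of 20 portal genes, 14 were lower without overlap on CPM and 12 after TMM, edgeR's correction for a few abundant genes, and 2 were higher on both scales. Of 20 central genes, 8 were higher on CPM and 13 after TMM, and 1 and 0 were lower. On CPM 49.2% of all genes were lower without overlap and 8.82% higher, and edgeR called 0 genes of either list and 0% of all genes. These pooled sums mix cell types, so that fewer cells of a type and less RNA per cell cannot be told apart.

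Hamp, which encodes hepcidin (ENSMUSG00000050440, chromosome 7, 30942368 to 30944032, minus strand, GRCm38), had the widest drop among the named genes. It stood at 249 and 524 CPM in the Pre-T mice and at 1.99 and 0.618 CPM in the Post-T mice, with 811 and 1622 CPM in the Ctrl mice (log2 fold change -7.79 ± 0.77 (SE, n = 2 against 2)). The level in both Post-T mice was below that of every other mouse. Hal, which opens the breakdown of histidine (ENSMUSG00000020017, chromosome 10, 93488768 to 93519304, plus strand), went from 61 and 112 CPM to 2.13 and 0.824 CPM.

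The other named genes of the lower side were mainly of hepatocytes. Sds, which deaminates serine, stood at 71.5 and 110 CPM in Pre-T and at 5.16 and 1.65 CPM in Post-T. Gldc, a subunit of the glycine cleavage system, stood at 88.3 and 141 against 6.3 and 0.464 CPM, and Gls2, the liver glutaminase, at 36.6 and 79.9 against 5.97 and 0.67 CPM. The portal P450 Cyp2f2 (35.8 and 82.6 against 2.7 and 0.103 CPM), the asparaginase Aspg (31.2 and 51.9 against 2.04 and 0.258 CPM) and the fatty acid elongase Elovl3 (34.5 and 54.7 against 0.71 and 1.13 CPM) followed the same order. In each of these genes the Post-T mice lay below both Pre-T and both Ctrl mice.

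Genes of other kinds completed the lower side. Clec4f, a lectin of Kupffer cells, stood at 53.7 and 135 CPM in Pre-T and at 5.16 and 2.16 CPM in Post-T. The potassium channel gene Kcnb2 stood at 246 and 147 against 14.7 and 2.32 CPM, a level that in the Ctrl mice was 69.9 and 54.2 CPM. Mup3 (141 and 546 against 33.4 and 0.412 CPM) and Mup20 (625 and 2628 against 168 and 1.24 CPM) belong to the major urinary proteins, a family of near-identical genes whose reads may be split among members.

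On the higher side, the widest differences came from 1 mouse. The imprinted RNA H19 stood at 0.205 and 0.14 CPM in Pre-T and at 1.42 and 112 CPM in Post-T, Meg3 at 5.37 and 3.12 against 40.2 and 1971 CPM, and Rian, from the same imprinted cluster as Meg3, at 0.779 and 0.698 against 7.53 and 263 CPM. Cyp2a5, a P450 of central hepatocytes, stood at 56.8 and 41.9 against 91.9 and 1598 CPM. In all 4 genes Post-T 2 was far above Post-T 1, and in Meg3, Rian and Cyp2a5 at least 1 Ctrl mouse also lay above Post-T 1.

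Other genes were high in both Post-T mice. The kinase gene Wnk4 stood at 12.9 and 0.465 against 150 and 102 CPM, the steroid dehydrogenase gene Hsd17b6 at 11 and 7.86 against 89.1 and 159 CPM, and the renin gene Ren1 at 6.8 and 7.12 against 73.6 and 90 CPM. Ttll11 (9.92 and 3.44 against 39.5 and 80.1 CPM), Rapgef4os1 (16.6 and 0.698 against 55.3 and 118 CPM) and Wif1, a secreted Wnt inhibitor (11.2 and 0.14 against 17.5 and 124 CPM), were less alike between the mice of a group. Hsd17b6 stood at 129 and 427 CPM in the Ctrl mice, so that Post-T 1 was below both of them. Cmss1 (529 and 1412 against 6479 and 11040 CPM) was ordered over the 4 WD libraries as Gm42418 was.

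**Figure D1:**
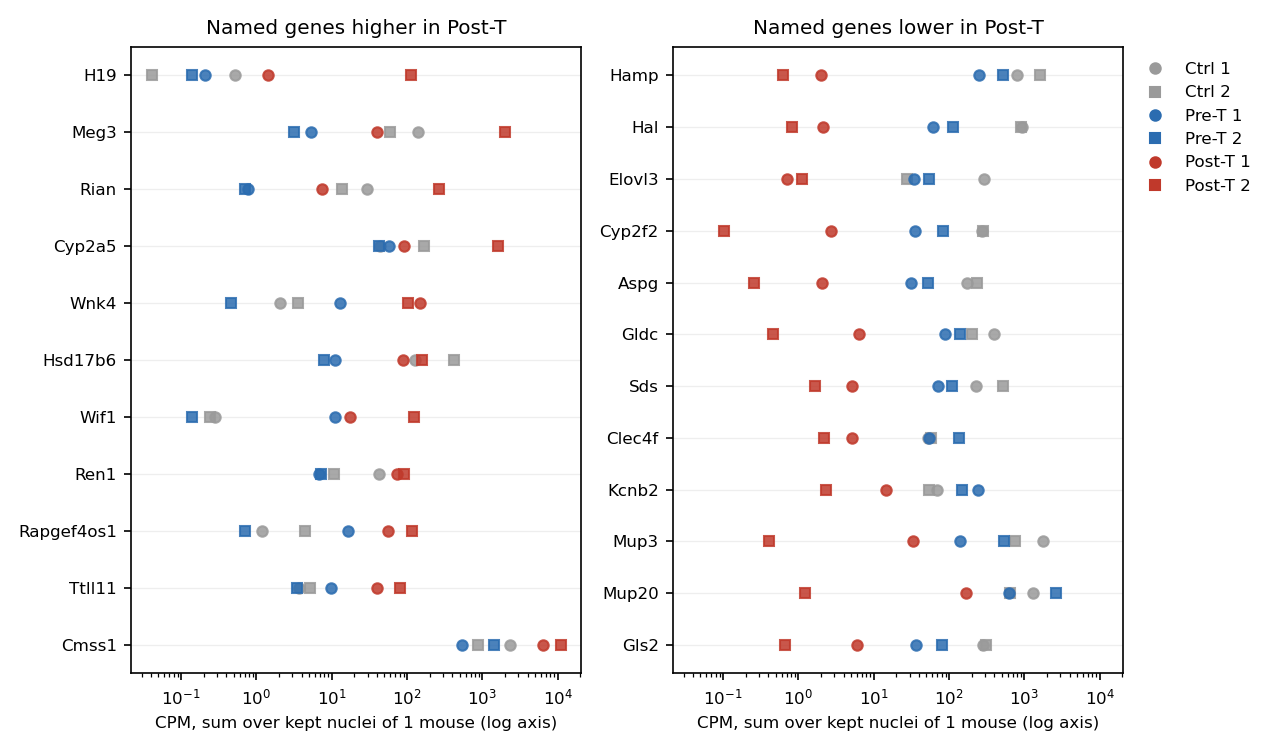
CPM of 11 genes higher and 12 lower in Post-T, among those with the widest log2 difference on each side, summed over all kept nuclei, for each of the 6 mice on a log axis (circles for replicate 1, squares for replicate 2). Post-T points lie outside the Pre-T points in every row, and Meg3, H19, Rian and Cyp2a5 are spread far apart between the 2 Post-T mice.

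None of these genes was called in the pooled nuclei. Of 21790 genes tested with edgeR's quasi-likelihood test and Benjamini-Hochberg adjustment, 0 were called higher (0%) and 0 lower (0%), with a smallest adjusted p of 0.0526 and 5315 genes at an unadjusted p under 0.05. DESeq2 on the same sums called 1412 genes higher (6.48%) and 1432 lower (6.57%), and edgeR without Post-T 1 called 1695. On CPM, 1921 genes did not overlap and were higher in Post-T (8.82%) and 10718 were lower (49.2%). With sums scaled by TMM, 5458 were higher (25.0%) and 6742 lower (30.9%), so that the higher side made up 15.2% of the non-overlapping genes on CPM and 44.7% after TMM. The median log2 ratio of genes of at least 20 CPM was -0.16 on CPM and 0.29 after TMM, a shift against which single differences in CPM are to be read.

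Lists of genes were described by their counts beside these shares. Of the 14 Kupffer cell genes, 11 were lower without overlap on CPM and 8 after TMM, with a median log2 fold change of -1.35 against -0.07 over all genes. Cd5l, a scavenger protein of resident macrophages, stood at 204 and 365 CPM in Pre-T and at 50.3 and 43.4 CPM in Post-T, close to the 50.6 and 53.2 CPM of the Ctrl mice. Vsig4, a complement receptor, stood at 61.3 and 112 against 15.3 and 10.7 CPM and Timd4 at 27.7 and 51.9 against 3.13 and 7.16 CPM. The iron exporter Slc40a1 was at 190 and 222 against 68 and 101 CPM, while Adgre1, the F4/80 antigen, stood at 105 and 145 against 89.8 and 33.1 CPM. Cd5l, Vsig4 and Timd4 were thus more than 3-fold lower in each Post-T mouse than in either Pre-T mouse, and Adgre1 in Post-T 1 was near Pre-T 1.

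Genes of lipid-associated macrophages, the cells that gather around dying fat-laden hepatocytes, were lower without overlap in 13 of 16 cases on CPM and in 10 after TMM (median log2 fold change -0.92). Trem2, their receptor for lipids, stood at 11.1 and 15.1 CPM in Pre-T, at 4.45 and 1.18 CPM in Post-T and at 0.241 and 0.408 CPM in Ctrl. Spp1, osteopontin, stood at 38.2 and 95.7 against 14.5 and 0.258 CPM. Cd36, a fatty acid transporter, stood at 167 and 210 against 111 and 72.8 CPM. These pooled values are not those of macrophages alone. Spp1 is also a listed marker of cholangiocytes, which had 119 and 124 Pre-T and 103 and 1 Post-T nuclei. Cd36 stood at 350 and 357 against 406 and 213 CPM in endothelial cells and at 195 and 193 against 121 and 39.3 CPM in hepatocytes. Gpnmb overlapped, at 30.2 and 39.5 against 33 and 19.5 CPM. Within the nuclei named macrophages, which made up a smaller share of both Post-T libraries, Gpnmb stood the other way, at 247 and 256 against 590 and 451 CPM, while Trem2 stood at 92.2 and 71.2 against 65.5 and 27.9 CPM and Cd36 at 295 and 326 against 73.7 and 89.2 CPM. Trem2 and Gpnmb in Post-T stayed above the Ctrl mice, whereas Spp1 in Post-T 2 was below them.

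Of 30 genes of collagens and the stellate cell matrix, 23 were lower without overlap on CPM and 21 after TMM, and 2 on CPM and 3 after TMM were higher (median log2 fold change -1.37). Col3a1 stood at 45.1 and 62.2 CPM in Pre-T and at 16.2 and 1.6 CPM in Post-T, Col1a1 at 8.61 and 14.7 against 3.5 and 1.03 CPM, and Col14a1 at 102 and 147 against 33.8 and 5.51 CPM. The 2 genes on the other side were those of basement membrane collagen. Col4a1 stood at 72.7 and 78.3 against 88.9 and 93.7 CPM and Col4a2 at 47.7 and 49.6 against 68.3 and 83.9 CPM, and in Ctrl 1 they were at 84.1 and 61.4 CPM.

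Of 22 chemokine genes tested, 15 were lower on CPM and 14 after TMM, and 0 higher (median log2 fold change -1.50). Cxcl1, which draws neutrophils, stood at 33.1 and 38.1 CPM in Pre-T and at 7.53 and 3.66 CPM in Post-T. Ccl6 stood at 26.7 and 56.1 against 7.96 and 2.42 CPM, Cxcl12 at 86.1 and 121 against 37 and 11.3 CPM, and Ccl2, which draws monocytes, at 10.7 and 13.5 against 2.27 and 0.155 CPM. Cxcl12 and Cxcl1 in Post-T were also below both Ctrl mice, and Ccl6 in both Post-T mice was above them (2.86 and 1.88 CPM). The chemokine Ccl4 overlapped, at 7.87 and 16.7 against 13.9 and 0.567 CPM. Of 18 genes of the type I interferon response, 14 were lower on CPM and 9 after TMM.

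The makeup of the libraries shifted at the same time. Nuclei were clustered over all 6 libraries and each cluster was named from its markers, which left 27.7 and 44.1% of the Pre-T nuclei and 53.1 and 0.451% of the Post-T nuclei unnamed. Hepatocytes made up 26.3 and 17.2% of the Pre-T nuclei and 23.7 and 56.1% of the Post-T nuclei, so that by named nuclei only Post-T 2 lay apart. Nuclei of low depth were not named evenly. Cluster 6, named hepatocytes, held 1704 nuclei of Post-T 2, with a median of 887 UMIs and 13825 CPM of the albumin gene Alb. The unnamed cluster 2 held 2474 nuclei of Pre-T 2 (795 UMIs, 17393 CPM). The unnamed cluster 9 held 1535 nuclei of Post-T 1 (752 UMIs, 10663 CPM). Shares were not recomputed with these clusters. Stellate cells and fibroblasts made up 8.42 and 6.91% against 3.92 and 1.07%. Macrophages made up 9.41 and 6.95% against 0.791 and 4.75%, and T cells 6.95 and 5.99% against 1.67 and 2.99%. The sizes depended on the clustering. At a Leiden resolution of 2 in place of 1, macrophages made up 15.2 and 17.2% against 9.9 and 4.92%, with 538 nuclei in Post-T 1 in place of 43. T cells made up 0.925 and 0.663% against 0.221 and 0.188%, and both classes kept the order of the groups. There a cluster with T cell markers, led by natural killer genes such as Klra4, Ncr1 and Klrk1, stayed unnamed. It held 318 and 400 Pre-T and 77 and 147 Post-T nuclei.

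In these 3 classes and in plasmacytoid dendritic cells (0.758 and 0.956% against 0.184 and 0.244%) both Post-T mice were below both Pre-T mice, and erythroid nuclei (0.814 and 0.803% against 3 and 0.864%) were above them. The exact two-sided permutation p was 1 in 3 for each, the smallest that 2 mice against 2 allow. Endothelial nuclei were 7.75 and 10.4% in Pre-T and 5.91 and 29.8% in Post-T, a difference of 8.8 percentage points between the means that became -3.17 without Post-T 2 and 3.14 at resolution 2. Monocytes (7.05 and 3.89% against 5.36 and 1.97%), B cells (2.2 and 1.2% against 0.405 and 1.73%) and cholangiocytes (2.2 and 1.58% against 1.9 and 0.0188%) did not separate in this way. A share can move with what was named, and the unnamed nuclei were spread over 3 of the 4 libraries.

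**Figure D2:**
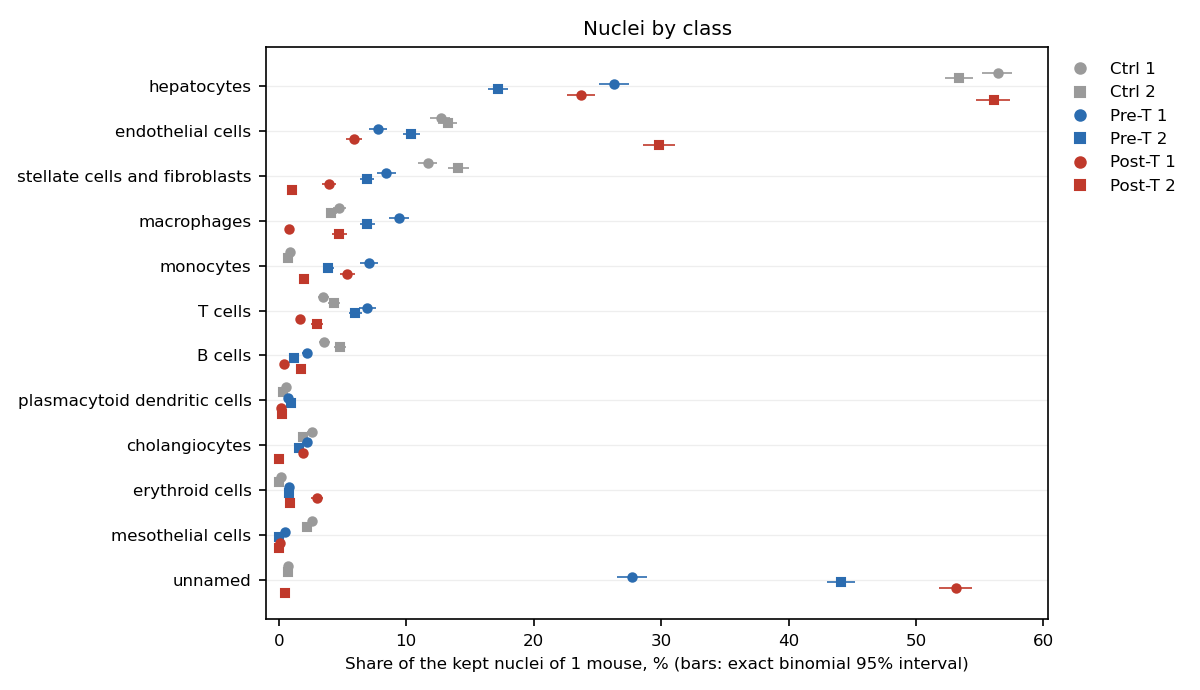
Share of kept nuclei by class for each mouse, with exact binomial 95% intervals that cover counting error only. Stellate cells, macrophages and T cells are lower in both Post-T mice (red) than in both Pre-T mice (blue). Among the WD mice, named hepatocytes and endothelial cells are high in Post-T 2 alone, and 3 WD libraries hold many unnamed nuclei.

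Within the nuclei named hepatocytes the 2 groups stood far apart. The Post-T hepatocytes held much more RNA of Wnt beta-catenin targets and central genes and nearly none of hepcidin and of several portal genes. Left out of the class were 950 Pre-T 1 nuclei of the unnamed clusters 21 and 25, which were high in Wnt targets. With these clusters added, 0 of the 14 Wnt targets and 0 of the 20 central genes were called, as given below. The named hepatocytes came from 1420 and 1349 Pre-T nuclei and 1287 and 2985 Post-T nuclei, with median UMIs of 5305, 5003, 6315 and 1633. The nuclei fell into clusters of their own group: cluster 1 held nearly all of the Pre-T hepatocytes, cluster 15 those of Post-T 1, and clusters 6 and 14 those of Post-T 2, so that a change within the class is also a difference between clusters.

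Of 18839 genes tested in hepatocyte sums, edgeR called 463 higher in Post-T (2.46%) and 630 lower (3.34%), or 1093 in all. On CPM, 13.8% of the genes did not overlap and were higher and 44.3% were lower, and after TMM 26.0 and 31.6%. The number of calls depended on which mice were in the fit. It was 0 without Pre-T 1, 0 without Pre-T 2, 4 without either Ctrl mouse, 3142 without Post-T 1, 2654 without Post-T 2 and 4 with only the 4 WD mice, and DESeq2 called 2697.

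Among the 6 named genes on each side, 5 of the lower side were also in the pooled list. Hamp stood at 522 and 547 CPM in Pre-T and at 0.1 and 0.695 CPM in Post-T (log2 fold change -9.84 ± 0.81, adjusted p = 0.0121, edgeR's quasi-likelihood test with Benjamini-Hochberg adjustment, as for every adjusted p here), and Hal at 142 and 173 against 0.904 and 0.973 CPM (-7.00 ± 0.34, adjusted p = 0.00583). In both genes the Post-T hepatocytes were near 0, while the Ctrl hepatocytes held 976 and 2010 CPM of Hamp and 1115 and 1104 CPM of Hal. Gask1a, a gene of a Golgi-associated kinase family, stood at 60.1 and 51.2 against 0.603 and 0.209 CPM, and Cyp2f2, Gldc and Aspg had log2 fold changes of -6.44, -6.33 and -6.26.

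On the higher side, Wnk4 stood at 0.958 and 0.495 CPM in Pre-T and at 187 and 132 CPM in Post-T (log2 fold change 8.09 ± 0.44, adjusted p = 0.00583). Lef1, a DNA-binding partner of beta-catenin (ENSMUSG00000027985, chromosome 3, 131110471 to 131224356, plus strand), stood at 4.55 and 0.371 against 397 and 210 CPM (7.27 ± 0.95, adjusted p = 0.0191), while the Ctrl hepatocytes held 1.8 and 1.44 CPM. Lef1 was thus high in both Post-T mice and at most 4.55 CPM in the other 4. Rian (9.32 ± 1.87) was carried by Post-T 2, at 335 CPM against 13.1 CPM in Post-T 1, while Peg3, another imprinted gene, stood at 28.5 and 18.4 against 9.95 and 0.139 CPM. Myzap (3.59 and 2.1 against 79.4 and 318 CPM) and Rapgef4os1 (2.63 and 1.24 against 101 and 150 CPM), an RNA antisense to Rapgef4 in name, also stood on this side.

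Of 14 listed targets of Wnt and beta-catenin, 10 were called higher and 0 lower (2.46 and 3.34% over all hepatocyte genes), 13 were at an unadjusted p under 0.05 and 13 did not overlap on CPM. Their median log2 fold change was 2.84 against -0.03 over all genes. Nkd1, an inhibitor that Wnt signaling induces against itself, stood at 14.1 and 3.59 CPM in Pre-T and at 214 and 229 CPM in Post-T (5.02 ± 0.63, adjusted p = 0.0182). Axin2, the common readout of the pathway, stood at 28.1 and 21.4 against 263 and 120 CPM (3.27 ± 0.39, adjusted p = 0.0182). Lgr5, the receptor for R-spondins that strengthens Wnt signals, stood at 86.4 and 92.3 against 458 and 490 CPM (2.77 ± 0.27, adjusted p = 0.0128). Each of the 3 was higher in both Post-T mice than in any Pre-T or Ctrl mouse.

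The ubiquitin ligases Znrf3 (203 and 188 against 996 and 738 CPM) and Rnf43 (232 and 219 against 655 and 735 CPM), which remove Wnt receptors from the cell surface, were called higher as well, with log2 fold changes of 2.50 ± 0.30 and 1.99 ± 0.33. The transcription factor gene Tcf7 (3.95 and 2.1 against 25.1 and 26.6 CPM), the ammonium transporter gene Rhbg (6.22 and 4.7 against 81.5 and 106 CPM) and the secreted Wnt inhibitor Notum (31.5 and 22.5 against 60.6 and 87.9 CPM) also passed the test. Tbx3, Myc, Sp5 and Ccnd1 did not, at adjusted p = 0.131, 0.0801, 0.0718 and 0.203 by edgeR. Of these 4, Ccnd1, the cyclin of the pathway, overlapped, at 10.7 and 10.5 against 7.74 and 47.7 CPM.

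Because these targets were high together, their promoters are of interest, and RefSeq promoter sequences of GRCm38.p6, from 250 bases before to 50 bases after a start, were matched by symbol for Axin2, Glul, Lef1, Nkd1, Rnf43, Sp5 and Tcf7. Lgr5, Znrf3, Notum, Rhbg, Tbx3, Ccnd1 and Myc had no entry. The core of the site bound by TCF and LEF factors was searched as CTTTGA on both strands, where its reverse complement is TCAAAG. It was held by promoters of 2 of the 7 genes and of 18.2% of all 27025 genes in the table. The matching promoters, of 1 of the 4 Lef1 starts and of Sp5, are shown on the strand of the gene with the matches in capitals, as a description and not as sites shown to be bound.
Lef1, chr3:131156044-131156343, plus strand: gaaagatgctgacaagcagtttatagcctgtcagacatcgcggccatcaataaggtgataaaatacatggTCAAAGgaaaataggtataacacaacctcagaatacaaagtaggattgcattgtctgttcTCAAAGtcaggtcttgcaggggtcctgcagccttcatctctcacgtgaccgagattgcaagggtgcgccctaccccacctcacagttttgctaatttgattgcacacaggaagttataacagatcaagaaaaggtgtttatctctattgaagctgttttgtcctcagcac
Sp5, chr2:70474673-70474972, plus strand: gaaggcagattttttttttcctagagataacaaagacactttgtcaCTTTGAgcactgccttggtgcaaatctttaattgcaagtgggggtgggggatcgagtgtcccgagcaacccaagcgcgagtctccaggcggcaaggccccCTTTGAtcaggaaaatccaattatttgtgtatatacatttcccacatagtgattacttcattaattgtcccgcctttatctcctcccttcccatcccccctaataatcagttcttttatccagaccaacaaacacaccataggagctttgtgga

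Of 20 genes of central hepatocytes, 8 were called higher and 0 lower (median log2 fold change 1.69), of which Lgr5, Axin2, Glul and Rhbg are also in the Wnt list. Glul, glutamine synthetase, stood at 487 and 402 CPM in Pre-T and at 1610 and 5418 CPM in Post-T (3.41 ± 0.66, adjusted p = 0.04). The glutamate transporter gene Slc1a2 (ENSMUSG00000005089, chromosome 2, 102658659 to 102790784, plus strand) stood at 183 and 163 against 2849 and 5350 CPM (4.97 ± 0.57, adjusted p = 0.0175). Gulo, of vitamin C synthesis, stood at 161 and 167 against 575 and 974 CPM. Slc1a2 and Glul were in Post-T far above the Ctrl hepatocytes too, which held 192 and 384 CPM of Slc1a2 and 172 and 165 CPM of Glul.

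Other central genes did not pass the test. The ethanol-metabolizing Cyp2e1 stood at 665 and 733 against 785 and 2067 CPM (adjusted p = 0.173 by edgeR) and Cyp1a2 at 10.2 and 15.3 against 37.5 and 318 CPM (adjusted p = 0.0627 by edgeR), both carried by Post-T 2. Aldh1a1, at 496 and 601 against 247 and 485 CPM, and Cyp2c50, at 95.9 and 119 against 66.3 and 117 CPM, had log2 fold changes of -0.18 and 0.17.

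Of 20 portal genes, 8 were called lower and 1 higher (median log2 fold change -2.59). Beside Hal and Cyp2f2, Sds stood at 173 and 176 CPM in Pre-T and at 3.32 and 2.15 CPM in Post-T (-5.65 ± 0.47, adjusted p = 0.0121), and Hsd17b13, an enzyme of lipid droplets, at 338 and 315 against 23 and 14.9 CPM (-3.77 ± 0.34, adjusted p = 0.0125). Gls2, Sdsl, Aldh1b1 and Ctsc were also called lower. Hsd17b6 was the gene on the other side, at 22.5 and 12 against 166 and 188 CPM, within the 154 and 539 CPM of the Ctrl hepatocytes. Arg1, the last enzyme of the urea cycle, stood at 585 and 563 against 84.1 and 10.8 CPM and did not pass the test (adjusted p = 0.0661 by edgeR).

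The urea cycle as a whole did not follow 1 direction. Of 8 genes, Otc was called lower (202 and 267 against 68 and 53.7 CPM, -1.60 ± 0.25) and Nags, which makes the activator of the cycle, was called higher (13.8 and 11 against 24.4 and 22.8 CPM, 1.29 ± 0.25). Cps1, the entry enzyme, stood at 2170 and 2526 against 1213 and 1052 CPM (adjusted p = 0.197 by edgeR) and Ass1 at 377 and 480 against 535 and 279 CPM. Cps1 was thus lower in both Post-T mice by less than 3-fold, and Ass1 overlapped.

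The calls on Wnt targets depended on which nuclei were named hepatocytes. In Pre-T 1, 950 nuclei, or 17.6% of that library, lay in the unnamed clusters 21 and 25, and 401 nuclei of Post-T 1 lay there too, with 0 in Pre-T 2, Post-T 2 and both Ctrl libraries. Cluster 21 had under 3 raised markers of any class. Cluster 25 stayed unnamed because its leading genes held Derl3, a listed plasma cell marker, and no listed hepatocyte marker. Hepatocytes were nevertheless the best class of cluster 25, with 4 raised markers (a share of 0.33 of the list). Cluster 15, of Post-T 1, was named hepatocytes with 3 raised markers (0.25). In the Pre-T 1 nuclei of clusters 21 and 25, Slc1a2 was at 4710 and 3324 CPM, Glul at 2967 and 2884 CPM, Lgr5 at 687 and 590 CPM, Lef1 at 752 and 217 CPM and Nkd1 at 3013 and 684 CPM. Lgr5 and Nkd1 in these nuclei of a mouse fed for 40 weeks were thus above both Post-T hepatocyte sums, and Slc1a2 and Glul lay between them.

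The same nuclei were low in portal genes. Hal stood at 4.37 and 3.36 CPM in the Pre-T 1 nuclei of clusters 21 and 25, against 142 CPM in cluster 1 of that mouse, and Cps1 at 50.5 and 59.2 against 2169 CPM. Hamp stood at 31.6 and 83.4 against 522 CPM. The albumin gene Alb stood at 973 and 2271 CPM against 3402 CPM in cluster 1, the factor Hnf4a at 78.7 and 183 against 283 CPM and the bile salt pump Abcb11 at 59.6 and 1170 against 1440 CPM. The endothelial Pecam1 and the leukocyte gene Ptprc were at 8.07 to 54.5 CPM in both clusters. Cluster 25 was thus closer to cluster 1 in Alb, Hnf4a and Abcb11 than cluster 21 was.

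When these clusters were added to the hepatocyte sums, an alternative added once the data had been seen, edgeR called 8 genes higher and 27 lower, and 0 of the 14 Wnt targets (median log2 fold change 1.55) and 0 of the 20 central genes (1.18) were called. In that sum Lef1 stood at 205 and 0.371 CPM in Pre-T and at 664 and 210 CPM in Post-T, and Slc1a2 at 1923 and 163 against 3137 and 5350 CPM. Nkd1 stood at 768 and 3.59 against 638 and 229 CPM, so that Pre-T 1 was above both Post-T mice. Hamp (306 and 547 against 2.85 and 0.695 CPM, adjusted p = 0.0488 by edgeR), Hal (77.2 and 173 against 0.878 and 0.973 CPM, adjusted p = 0.0467), Sds (94.1 and 176 against 2.56 and 2.15 CPM, adjusted p = 0.0483) and Aspg (adjusted p = 0.0483) were still called lower. Of the 20 portal genes 2 were still called lower (median log2 fold change -2.56), and 7 of the 14 Wnt targets did not overlap. Hepcidin and the portal genes Hal and Sds thus passed the test with and without these clusters, and the Wnt targets only without them. With all unnamed nuclei added to the hepatocytes, also chosen after seeing the data, 0 genes were called, so that none of these passed.

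**Figure D3:**
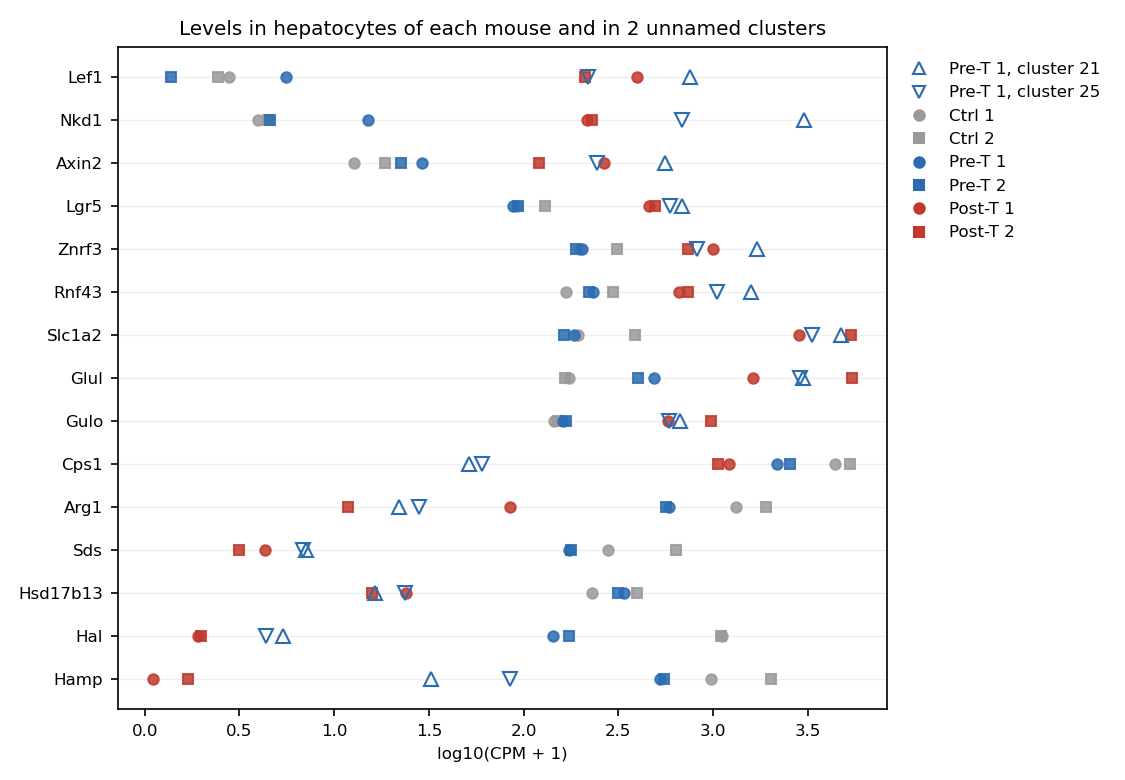
Levels in hepatocyte sums of each mouse on a log10(CPM + 1) axis, with open triangles for the Pre-T 1 nuclei of the unnamed clusters 21 and 25. Wnt and central genes (upper 9 rows) lie right in Post-T (red) and portal genes and Hamp (lower 6 rows) lie left, and both triangles sit with the Post-T points in rows such as Slc1a2 and Hal.

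Single nuclei gave the same picture without the differences in depth. After thinning to 1000 UMIs, Slc1a2 was counted in 12.7 and 8.23% of Pre-T and in 82.4 and 96.9% of Post-T hepatocyte nuclei. It was counted in 95.1 and 87.9% of the Pre-T 1 nuclei of clusters 21 and 25. Lef1 was counted in 1.03 and 0.0762% against 26.7 and 15.3%, and in 53.5 and 17.4% of the 2 clusters. Without thinning, Lef1 was counted in 2.04 and 0.222% against 57.2 and 32.9%, and in 93.4 and 48.9% of the 2 clusters, so that its shares moved with the depth per nucleus.

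The opposite held for the portal side. Hal was counted in 11.3 and 12.7% of Pre-T and in 0.156 and 0% of Post-T hepatocyte nuclei (0 of 1914 nuclei, with an exact upper limit of 0.193%), against 50.2 and 49.8% in Ctrl. Hamp was counted in 20.5 and 35.4% against 0.0782 and 0.0522%. Cps1 was counted in 60.3 and 68.6% against 35.8 and 35.5%. Nuclei under 1000 UMIs were left out, 250, 37, 9 and 1071 in the 4 libraries in turn. Without thinning, Slc1a2 was counted in 31.3, 16.4, 97.2 and 94.8% and Hal in 23.4, 32.8, 0.622 and 0.268%.

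Part of these counts may come from free RNA or from nuclei that shared a droplet, which was not tested. In macrophages, which should lack Slc1a2, it was counted in 10.5 and 2.21% of Pre-T and 35 and 64.4% of Post-T nuclei after thinning. The Pre-T 1 share in hepatocytes was thus near this background. Macrophages had Lef1 in 1.47, 0.184, 0 and 0.81% and Hal in 1.47, 2.76, 0 and 0.405% (median UMIs before thinning 2904, 2977, 1997 and 2559). The macrophages of Post-T 1 were 40 nuclei at this depth. The Post-T shares of Lef1 in hepatocytes were above this background, and the Pre-T shares were at or below it.

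**Figure D4:**
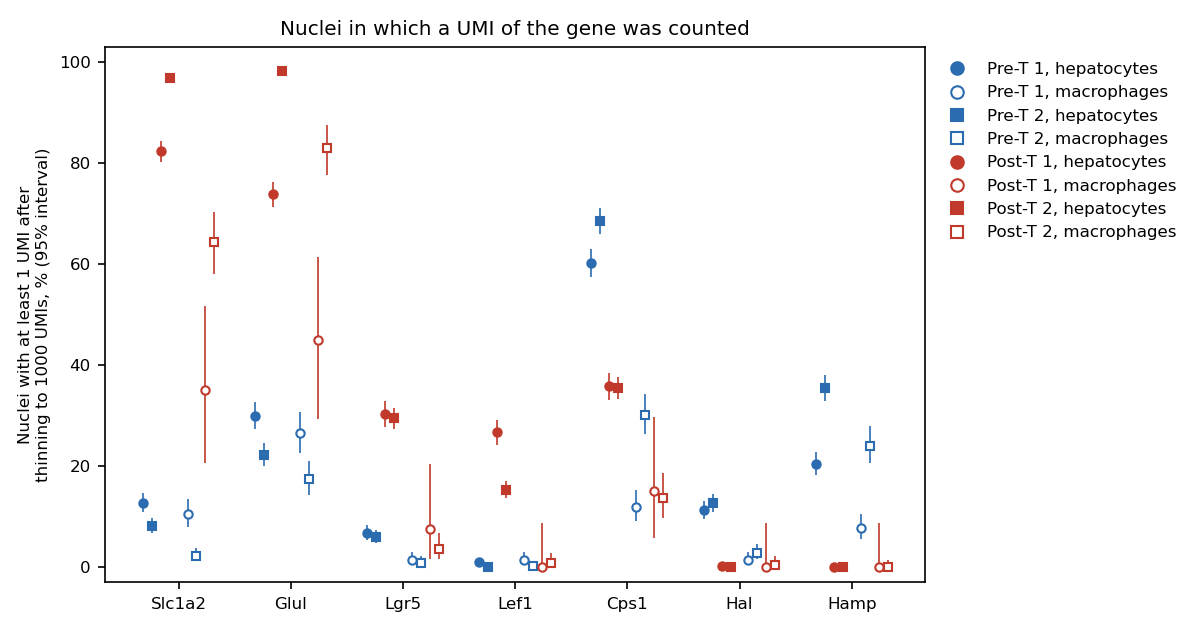
Share of nuclei with at least 1 UMI of a gene after thinning to 1000 UMIs, with exact binomial 95% intervals. Hepatocytes are filled and macrophages open, the latter as a background whose source was not tested. Slc1a2, Glul, Lgr5 and Lef1 are high in Post-T hepatocytes and Hal and Hamp near 0, and the Slc1a2 and Glul counts of macrophages rise in Post-T as well.

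Few sterol and bile acid genes were called by edgeR. The counts of these and the following lists stand beside 2.46% of all hepatocyte genes called higher and 3.34% called lower. Of 24 genes of cholesterol synthesis and uptake, 2 were called higher and 0 lower. After TMM, 12 were higher without overlap and 1 lower, beside 26.0 and 31.6% of all genes. DESeq2 called 7 higher and 0 lower, and the median log2 fold change was 0.52. Sqle, squalene epoxidase, stood at 4.67 and 3.47 CPM in Pre-T and at 25.7 and 39.6 CPM in Post-T (3.39 ± 0.52, adjusted p = 0.0253), and the sterol carrier Stard4 at 34.7 and 32.9 against 98.1 and 205 CPM. Sqle and Stard4 in the Ctrl hepatocytes were at 69.9 and 32.8 CPM and at 122 and 82.6 CPM, so that Stard4 in Post-T 2 was above both chow-fed mice and Sqle in Post-T 1 below both.

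Of 23 genes of bile acid synthesis and transport, 2 were called higher and 1 lower. Cyp8b1, which makes cholic acid, stood at 29.6 and 30.7 CPM in Pre-T and at 1.71 and 0.556 CPM in Post-T (-4.45 ± 0.56, adjusted p = 0.0182). The exporter gene Abcc4 (33.9 and 40.4 against 132 and 283 CPM) and the uptake carrier gene Slco1a4 (141 and 73.8 against 488 and 470 CPM) were called higher. Cyp7a1, the rate-limiting enzyme of bile acid synthesis, stood at 214 and 201 against 210 and 310 CPM and overlapped.

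Of 35 P450 genes of drug metabolism tested, 3 were called higher and 5 lower. Those called higher were all of the Cyp2c family, Cyp2c54 (22.6 and 35.8 against 171 and 151 CPM), Cyp2c67 (132 and 130 against 790 and 454 CPM) and Cyp2c68 (146 and 144 against 275 and 357 CPM), whose near-identical members may share reads. Those called lower were Cyp2f2, Cyp2b13, Cyp2u1, Cyp2d9 and Cyp2j5. Of 20 genes that are higher in male than in female mouse liver, 5 were called lower and 0 higher (median log2 fold change -2.21). Cyp2d9 stood at 159 and 145 against 23.1 and 11.7 CPM and Mup21 at 21.5 and 25.9 against 1.31 and 0.487 CPM, and Elovl3 (77.1 and 65.5 against 0.603 and 1.46 CPM) was not called (adjusted p = 0.0539 by edgeR). Of 17 female-biased genes tested, the regulator Cux2 was called higher (0.479 and 0.99 against 14 and 4.17 CPM) and Cyp2b13 lower.

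In glucose metabolism, 4 of 24 genes were called higher and 2 lower. G6pc, which releases glucose, stood at 980 and 830 against 310 and 175 CPM (-1.57 ± 0.32, adjusted p = 0.0443). Foxo1 (245 and 253 against 485 and 380 CPM), Pfkfb1, Pfkl and Pfkfb3 were called higher, the last with 9.93 and 11.3 against 59 and 295 CPM.

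Of 32 genes of lipogenesis and lipid droplets, edgeR called 1 higher and 2 lower, beside 2.46 and 3.34% of all hepatocyte genes. Without overlap, 20 were lower on CPM and 17 after TMM, beside 44.3 and 31.6% of all genes, and 3 and 4 were higher. DESeq2 called 3 higher and 9 lower, and the median log2 fold change was -0.67 against -0.03 over all genes. Acly, which supplies acetyl-CoA for fat synthesis, stood at 159 and 158 against 47.9 and 40.5 CPM and the droplet coat gene Plin2 at 353 and 327 against 73.5 and 89.9 CPM. Pparg was called higher, at 130 and 114 against 254 and 170 CPM. Fasn, fatty acid synthase, stood at 174 and 198 against 36.4 and 60.1 CPM and was not called (adjusted p = 0.0936 by edgeR).

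Of 24 acute phase genes, Crp was called higher (499 and 406 against 1062 and 1065 CPM, 1.60 ± 0.26, adjusted p = 0.0299), as was the cytokine inhibitor Socs3, and Hamp lower. The serum amyloid genes Saa1 (48.7 and 149 against 28.3 and 1.53 CPM) and Saa2 (43.8 and 94.7 against 15.3 and 1.18 CPM) were not called and may share reads. Of 27 complement genes tested, 2 were called lower, among them C8a (595 and 550 against 78.3 and 26.1 CPM). Crp moved against Hamp and C8a although all are secreted by hepatocytes.

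Of 25 listed tumor and oncofetal genes tested in hepatocytes, edgeR's quasi-likelihood test called 0, with 10 at an unadjusted p under 0.05, and DESeq2 called 3 higher and 3 lower. Afp, alpha-fetoprotein, stood at 9.1 and 5.69 CPM in Pre-T and at 4.52 and 4.59 CPM in Post-T, and Gpc3, glypican 3, at 1.92 and 0.619 against 7.43 and 1.04 CPM. H19 was at 0.12 and 0 CPM in Pre-T, at 1.71 CPM in Post-T 1 and at 123 CPM in Post-T 2. Igf2bp2 stood at 47.9 and 47.5 against 4.52 and 0.348 CPM. Of 30 cell cycle genes, edgeR and DESeq2 called 0, with 0 at an unadjusted p under 0.05 by edgeR. H19 was thus a feature of 1 Post-T mouse, and Afp was no higher than in Pre-T.

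**Figure D5:**
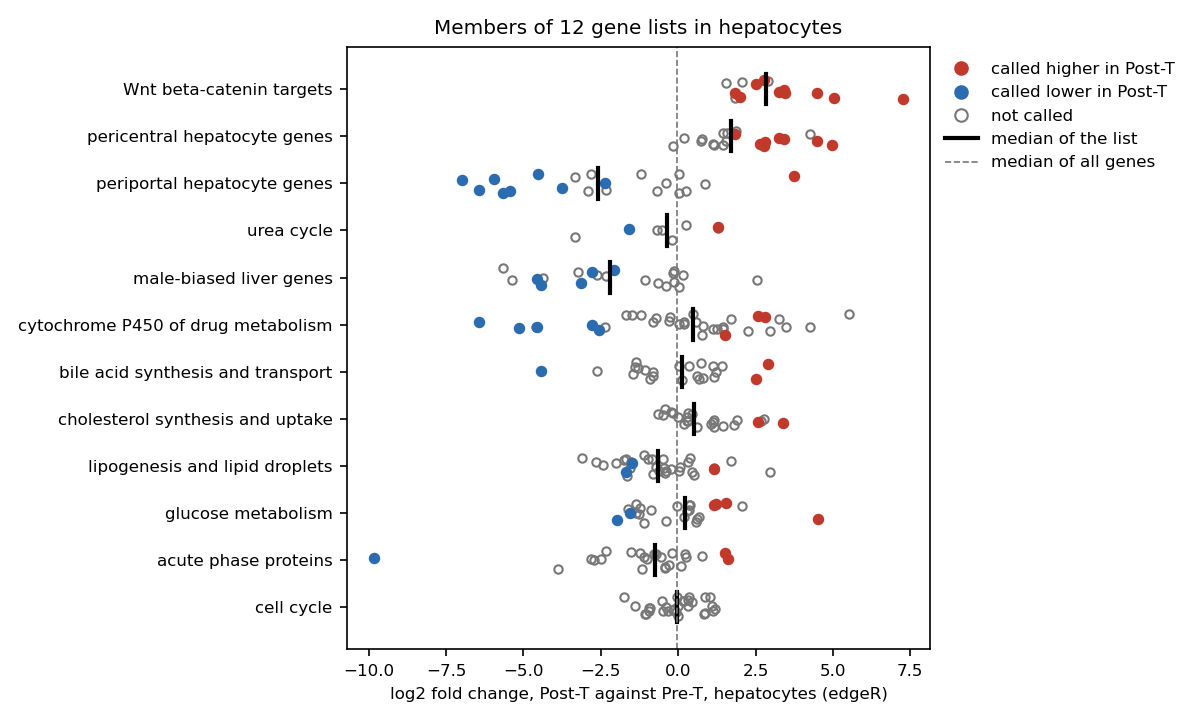
Log2 fold change of each member of 12 lists in hepatocytes, with genes called by edgeR in red (higher in Post-T) or blue (lower) and the median of each list as a bar. The medians are 2.84 for Wnt targets, 1.69 for central genes and -2.59 for portal genes, against -0.03 for all genes (dashed line). The calls leave out the 950 Pre-T 1 nuclei of clusters 21 and 25.

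Outside hepatocytes, 6 classes had at least 20 nuclei in every WD mouse. In endothelial cells edgeR called 270 genes higher (1.43%) and 376 lower (1.99%) in Post-T. As in hepatocytes, the groups lay in different clusters. Cluster 4 held 233 of the 321 and 1567 of the 1588 Post-T nuclei and 36 of the 419 and 1 of the 816 Pre-T nuclei, most of which lay in clusters 12 and 13, and Mcf2l and Lrrc3b were among the leading genes of cluster 4. Mcf2l, an exchange factor gene, stood at 8.15 and 3.57 CPM in Pre-T and at 236 and 206 CPM in Post-T (5.62 ± 0.44, adjusted p = 0.00528). The muscarinic receptor gene Chrm3 stood at 11.8 and 5.61 against 271 and 248 CPM and Lrrc3b at 7.24 and 2.04 against 91.3 and 134 CPM. In hepatocytes these 3 genes were at 0 to 6.53 CPM, below the endothelial levels of the Post-T mice. Chrm3 in Ctrl endothelium was at 97.8 and 69.9 CPM, between the groups. Without either Pre-T mouse 0 genes were called, and 386 and 100 without Post-T 1 and Post-T 2.

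Stellate cells and fibroblasts had 5 genes called higher (0.0264%) and 10 lower (0.0527%), from 455, 542, 213 and 57 nuclei. The connexin gene Gjc1 stood at 8.66 and 19.2 CPM in Pre-T and at 81.5 and 179 CPM in Post-T (3.18 ± 0.49, adjusted p = 0.0486 by edgeR). The transcription factor gene Zbtb16 stood at 91.6 and 125 against 662 and 1303 CPM, and also rose in hepatocytes (388 and 420 against 1147 and 2021 CPM). The calls numbered 0 without Post-T 2 and 184 without Pre-T 1, 103 without Pre-T 2 and 65 without Post-T 1.

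In macrophages 53 genes were called higher (0.305%) and 43 lower (0.248%), with 43 nuclei in Post-T 1. The unnamed cluster 18, which held markers of both macrophages and monocytes, had 144 and 344 nuclei in Pre-T and 472 and 4 in Post-T, so that more such nuclei of Post-T 1 lay outside the class than in it, and the calls were not recomputed with them. Fgf13, an intracellular growth factor relative, stood at 159 and 118 CPM in Pre-T and at 0 and 1.33 CPM in Post-T (-6.60 ± 0.62, adjusted p = 0.0112), and the opioid receptor gene Oprm1 at 92.7 and 72.2 against 8.19 and 2.66 CPM. Id3, which Kupffer cells need, stood at 159 and 178 against 8.19 and 9.32 CPM (-4.01 ± 0.36, adjusted p = 0.00992). The Post-T 1 macrophages held 0.578% of the UMIs of that library, so that 8.19 CPM in them is near the floor. In hepatocytes Fgf13 and Oprm1 were at 0.348 to 4.62 CPM, while Id3 fell there too, from 54.9 and 49.5 to 1.11 and 1.04 CPM. Ctrl macrophages held 2.71 and 7.07 CPM of Fgf13 and 6.78 and 7.07 CPM of Oprm1, so that Pre-T stood above both other groups. Calls numbered 13 without Post-T 1 and 0 without any one of the other 3 WD mice.

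Kupffer cell genes in the macrophage nuclei followed the pooled sums only in part. Clec4f stood at 514 and 637 CPM in Pre-T macrophages and at 115 and 45.3 CPM in Post-T, and Cd5l at 1978 and 1812 against 1499 and 960 CPM. Adgre1 stood at 915 and 839 against 483 and 615 CPM. The difference in Cd5l within macrophages was smaller than in the pooled sums, where the share of macrophage nuclei had also changed.

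Monocytes had 162 genes called higher (1.09%) and 234 lower (1.58%). T cells had 113 higher (0.694%) and 221 lower (1.36%), and B cells 76 higher (0.516%) and 70 lower (0.476%). DESeq2 called fewer, 48 genes in monocytes, 78 in T cells and 18 in B cells. The widest differences in these 3 classes were largely of hepatocyte genes. Hamp stood at 109 and 378 CPM in Pre-T and at 0 in both Post-T monocyte sums, and Meg3 at 0 and 1.15 CPM against 6.88 and 269 CPM in T cells. Cyp2a5 stood at 34.7 and 42.5 against 89.4 and 2352 CPM in T cells. An exception was Cmss1 in B cells, of which Post-T 1 had 22, at 842 and 1915 against 9612 and 18255 CPM, above its hepatocyte levels. Each of these moved in the direction it had in hepatocytes of the same mice, and the part of free RNA in the calls was not tested. The calls numbered 212 and 168 in monocytes without Pre-T 1 and Pre-T 2, 212 and 51 in T cells without Post-T 1 and Post-T 2, and 23 in B cells without Post-T 2. The cluster named T cells also held markers of natural killer cells. At resolution 2 only 50 and 52 Pre-T and 12 and 10 Post-T nuclei were named T cells, beside a larger unnamed cluster led by natural killer genes. How far the T cell calls are those of natural killer cells was not tested.

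The same values stood beside the calls of the larger classes. Hamp in endothelial sums was at 173 and 599 against 1.22 and 0.303 CPM and in stellate sums at 121 and 269 against 0 and 0 CPM. Of the genes called lower in endothelial cells, 44.4% were also called lower in hepatocytes, which is 26.5% of the hepatocyte list, and of those called higher 11.5%, or 6.7% of the hepatocyte list. In T cells the shares were 35.3 and 12.4% of the lower calls and 44.2 and 10.8% of the higher calls. They were 32.6 and 2.22% and 43.4 and 4.97% in macrophages. For the few stellate calls they were 60 and 0.952% and 60 and 0.648%. The named genes of the higher side in macrophages were Meg3, Wnk4 and Hsd17b6, and those of the lower side in stellate cells Hamp, Hal and Hsd17b13. Each moved in the same direction in hepatocytes. Genes such as Mcf2l, Chrm3, Gjc1, Fgf13 and Oprm1 were in contrast lower in hepatocytes of every WD mouse than in the higher group of the class where they were called.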

How the data were processed

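Nuclei of 6 snap-frozen mouse livers (Ctrl, Pre-T and Post-T, 2 mice each, 1 library per mouse) were profiled by droplet RNA sequencing. The authors aligned reads to mm10 with Cell Ranger 6.1.1 and deposited unnormalized UMI counts per gene and barcode. Whether intronic reads were counted is not given in the sources used here. Barcodes with more than 200 and under 5000 genes and under 5% mitochondrial UMIs were kept. No doublet caller was run beside the limit of 5000 genes. Counts were summed per mouse, over all kept nuclei and by class, and given as CPM. Nuclei were clustered with scanpy 1.11.5 (Leiden) over all 6 libraries and clusters were named from fixed markers. The rule for a raised marker was changed 2 times after clusters had been seen, from 2-fold over the other nuclei to a fold over the median cluster, and then to 2-fold for hepatocytes and 4-fold for other classes, and clusters with under 3 raised markers or leading genes of another class stayed unnamed.

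Sums were tested with edgeR 4.0.16 (glmQLFit and glmQLFTest, TMM, all 6 mice in the fit, genes with at least 10 counts in all, or 3 in the smaller classes) and Benjamini-Hochberg adjustment at 0.05 (SE taken as the fold change over the root of F), checked on simulated counts, with DESeq2 1.42.0 as an alternative. Shares were compared with an exact permutation test. The groups were housed in different cages, and nothing said that mice of a group were independent of cage or day, so p-values measure the spread between these mice only. Intervals cover counting error only. Genes were named by a rule: the 12 widest log2 fold changes on each side in pooled nuclei, 6 in hepatocytes and 3 in other classes, among genes called, of at least 20 CPM on average and without overlap, filled with uncalled genes where too few were called, and leaving out predicted and mitochondrial genes. The members and lists were chosen with earlier results of these data known. Which of the 31 lists are described with members was chosen after their values were seen, as were Ccl4, Gpnmb, Peg3, Ass1, Cyp7a1, Fasn, the cluster genes and other uncalled genes given as contrasts. Some genes that the rule names are not reported here. Gene positions are from GENCODE vM21 (GRCm38) and promoters from RefSeq.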

Additional observations from a re-analysis of the deposited data

How the results depend on the processing

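With 2 mice per group, counts of calls depended on the libraries and the fit. In pooled nuclei, where 0 genes were called, DESeq2 called 2844, DESeq2 size factors in edgeR 3, library sums alone without TMM 112, no filter on low counts 277, all barcodes 8, no mitochondrial limit 3 and only named nuclei 2005, and leaving out 1 mouse gave 0 to 1695. In hepatocytes, against 1093, DESeq2 called 2697, the 4 WD mice alone 4, Leiden resolution 2 gave 612, adding all unnamed nuclei 0 and adding clusters 21 and 25 gave 35 (both added after seeing the data), and leaving out 1 mouse gave 0 to 3142. Other classes by DESeq2 and by leaving out 1 mouse gave 976 and 0 to 386 in endothelial cells, 92 and 0 to 184 in stellate cells, 211 and 0 to 13 in macrophages, 48 and 168 to 326 in monocytes, 78 and 51 to 426 in T cells, and 18 and 23 to 169 in B cells. The cause was not tested.

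Whether same-numbered mice of Pre-T and Post-T share more than a number, such as a day, was not known. Deviations of same-numbered mice correlated at 0.0686 over 10358 genes. The values were -0.237 for Ctrl and Pre-T and 0.0254 for Ctrl and Post-T. With so few mice per group, a correlation near 0 cannot show that nothing else was shared. With the number as a replicate block, 0 genes were called in pooled nuclei, 630 in hepatocytes, 875 in endothelial cells, 477 in stellate cells, 779 in macrophages, 319 in monocytes, 467 in T cells and 103 in B cells.

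Genes without overlap numbered 5458 higher and 6742 lower after TMM, and 1110 and 2782 at a mean of at least 20 CPM. Differences in share, in percentage points, ranged over the left-out mice from -1.29 to 0.0289 in B cells, -1.87 to 0.00518 in cholangiocytes, -3.17 to 20.8 in endothelial cells and -0.444 to 0.0113 in mesothelial cells. At Leiden resolution 2 they were -0.589 against -4.14 in T cells, -8.82 against -5.41 in macrophages, -3.29 against -1.8 in monocytes and 3.14 against 8.8 in endothelial cells. Log2 fold changes that turned were of pooled C6 (0.10 without Pre-T 2, 0.03 without Post-T 2), Ccl4 (-3.94 to 0.49 over the left-out mice, with 0.22 without Pre-T 2) and Gpnmb (-0.34 to 0.24, with -0.29 without Pre-T 1, -0.41 on library sums alone, -0.07 with no filter, -0.02 with 1 CPM in 2 mice, -0.22 with no mitochondrial limit, -0.28 in named nuclei), and of hepatocyte Ass1 (-0.16 to 0.56, -0.07 on library sums alone), Cyp7a1 (-0.10 with clusters 21 and 25), Pck1 (0.22 with unnamed nuclei) and Saa3 (-1.19 to 1.06, with 0.25 without Post-T 2).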
